A study of Mus musculus with 28 samples.

Results

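Dermal papilla cells of mouse back skin were sorted 5 ways. The papilla core described here holds 27 of 15052 genes tested. They passed a test, given below, for a higher level in each of the 5 sorts than in every other sorted skin population. The 5 papilla sorts gave 10 of the 28 libraries, 2 per sort, and the other 18 libraries came from 9 other populations. Genes with at least 1 FPKM (fragments scaled to transcript length and to the mapped fragments of the library) in at least 2 libraries were ranked by the lowest papilla mean minus the highest mean of the other populations, both on the log2(FPKM + 1) scale. This smallest difference is called the rank value below. Of 15052 genes that passed the filter, 108 were listed at 0 in all 10 papilla libraries and left out, and 14944 were ranked.

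All mice were at postnatal day 5 and of a mixed FVB/N, C57BI/6J and CD1 background. All 5 papilla sorts carried Lef1-RFP, a reporter of the Wnt pathway transcription factor Lef1, and took cells of the dermal preparation that were RFP-positive with high surface integrin alpha 9 (ITGA9). They differed in a second reporter. DP was the whole papilla sort of the K14-H2BGFP line. From the Sox2-GFP line came G/AA-DP (GFP-positive, labelled guard and awl/auchene papillae) and ZZ-DP (GFP-negative, labelled zig-zag papillae). From the Crabp1-GFP line came G-DP (GFP-negative, labelled guard papillae) and AA/ZZ-DP (GFP-positive, labelled awl/auchene and zig-zag papillae). The nearest other population by gate was DF, labelled dermal fibroblasts, which was Lef1-RFP-positive without CD117 and ITGA9. The K14-H2BGFP;Lef1-RFP line also gave Mc (melanocytes, Lef1-RFP-positive with CD117), TAC (Shh-expressing matrix progenitors, dim GFP with RFP), Mx (matrix, dim GFP), ORS (outer root sheath, bright GFP), Epi (GFP-positive epidermal preparation) and Neg (marker-negative cells). HF-SC and HF-ORS were Sox9-GFP-positive and Sox9-GFP-negative sheath cells of a K14-RFP line whose labels name no Lef1-RFP. The Sox2-GFP and Crabp1-GFP lines held no population other than papilla, so for these 4 sorts line and cell population cannot be told apart, and DP alone had other populations of its own line beside it. Whether the 2 libraries of a population stem from different mice is not stated, so p-values measure the spread between these libraries, which may be technical.

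The dermal papilla is a cluster of mesenchymal cells at the base of the hair follicle, enclosed by the matrix, the dividing epithelium that makes the hair shaft. It is known for the secreted signals it gives the matrix, among them R-spondins, which strengthen Wnt signalling, and fibroblast growth factors, and it receives Sonic hedgehog made by matrix cells. It also signals to the melanocytes above it, and the papillae of guard, awl/auchene and zig-zag hairs belong to follicles that form in successive waves.

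All 10 papilla libraries correlated best with another papilla library across genes, and none of the 18 other libraries did. Replicates correlated at 0.884 to 0.931 in the papilla sorts and at 0.909 to 0.966 in the other populations. Papilla sort means correlated with each other at 0.913 to 0.977, with DF at 0.882 to 0.900 and with the 8 remaining populations at 0.673 to 0.801. Markers of melanocytes stood out in 3 papilla libraries and those of fibroblasts in 3. The summed FPKM of 10 melanocyte markers was 1264 in G-DP replicate 1, 1306 in G-DP replicate 2 and 768 in ZZ-DP replicate 2. The other 7 papilla libraries held 26.4 to 123.5, against 1414 and 1431 in DF. None of the 10 markers was listed at 0 in all papilla libraries. Mlana, a melanosome protein, had 670 and 321 FPKM in G-DP and 158 in ZZ-DP replicate 2. Counts and calls that change without G-DP are therefore given beside the results. The summed FPKM of 11 fibroblast markers was 3452 in DP replicate 1, 1969 in DP replicate 2 and 2812 in ZZ-DP replicate 2, and 726 to 1598 in the other 7 papilla libraries, against 2514 and 5931 in DF. Keratinocyte markers summed to 85.4 to 579 FPKM in papilla libraries, highest in G-DP replicate 2, and endothelial and leukocyte markers to at most 15.9 and 7.91 FPKM.

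**Figure D1:**
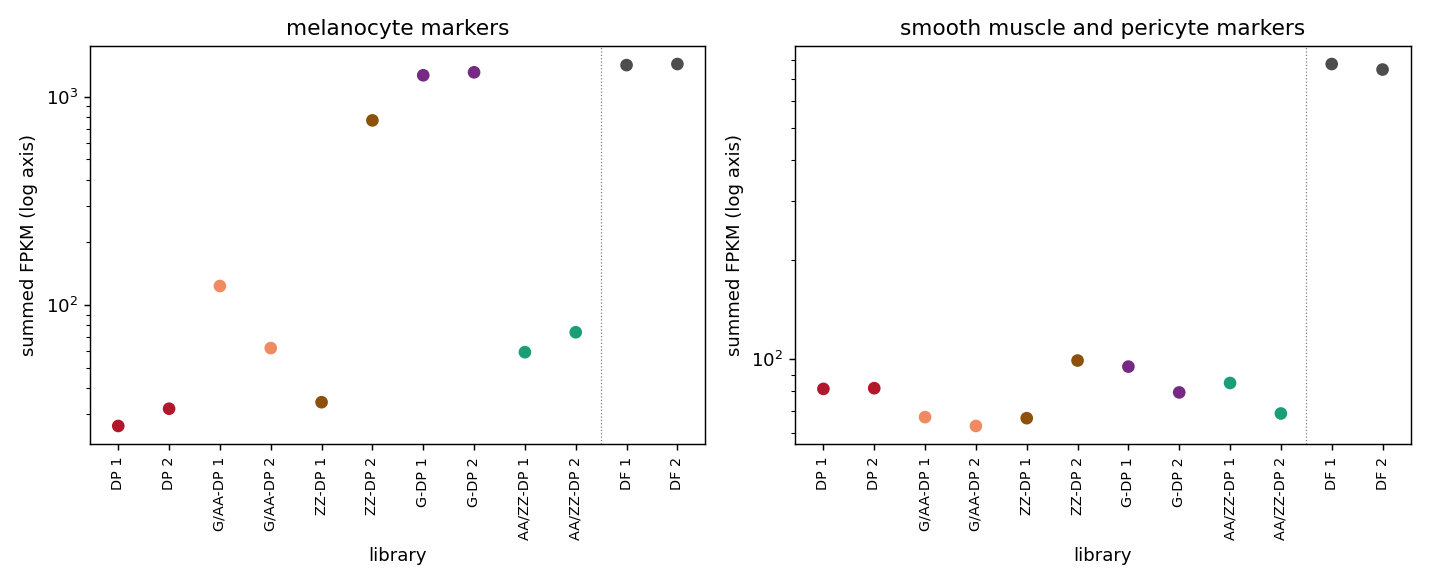
Summed FPKM (log axis) of the melanocyte markers (left) and of the smooth muscle and pericyte markers (right), 1 point per library, with the 10 papilla libraries left of the 2 DF libraries. Both G-DP libraries and ZZ-DP replicate 2 lie near the DF level for melanocyte markers, while all papilla libraries lie between 63.0 and 99.2 FPKM for smooth muscle and pericyte markers, below 778 and 749 FPKM in DF.

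The papilla label was read with the markers Corin, Trpm3, Rspo3 and Crabp1. All were higher in each of the 10 papilla libraries than in any other library; in bulk sorts, more cells of a type and more RNA per cell cannot be told apart. Corin and Trpm3 also passed the test for the core described below, which uses the same values, and Crabp1 names a sorting reporter. The reading is therefore no independent check of the label. Rspo3, an R-spondin, had a lowest, median and highest level of 232, 504 and 786 FPKM in the papilla libraries, against 93.1 and 127 FPKM in DF. Its rank value was 1.22 ± 0.43 (SE), set by G-DP, and it missed the test in the 5 sorts together while it passed in DP against the 7 other populations of its line, by 2.72 (limma adjusted p = 0.0015). Without G-DP, Rspo3 passed the core test, with a rank value of 2.13 (adjusted p = 0.0293). Crabp1, a retinoic acid binding protein, ranged from 421 to 1866 FPKM in the papilla libraries, against 144 and 194 FPKM in DF. Its rank value of 1.62 ± 0.72 missed the test.

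Genes of the sorting gates were read in the same way. Itga9 had 72.4 to 166 FPKM in the papilla libraries, against 9.37 and 29.8 FPKM in DF and up to 47.0 FPKM in Mc. It was higher in all 5 sorts than in DF (smallest difference 2.37 ± 0.50 SE, adjusted p = 0.0146, limma). Lef1 did not mark the papilla, with 62.4 to 148 FPKM in papilla libraries, against a mean of 245 FPKM in TAC and 90.4 FPKM in DF. Sox2 did not follow its reporter. It had 0 and 4.81 FPKM in the GFP-positive G/AA-DP libraries, against 4.87 and 0.0891 FPKM in the GFP-negative ZZ-DP libraries, a difference of -0.07 ± 0.64 (SE, limma adjusted p = 1). The highest Sox2 levels were 28.9 and 20.3 FPKM in DP. Crabp1 averaged 525 ± 148 FPKM in the GFP-negative G-DP and 1508 ± 506 FPKM in the GFP-positive AA/ZZ-DP (SD, n = 2 each), a difference of -1.51 ± 0.72 (SE) that missed the threshold (limma adjusted p = 0.597). Follicle types are therefore given as the labels have them: Sox2 messenger RNA did not separate G/AA-DP from ZZ-DP.

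A gene entered the core when all 45 differences between a papilla sort and another population were positive, the smallest was at least 1 on the log2(FPKM + 1) scale and the largest of the 45 two-sided p-values stayed under 0.05 after Benjamini-Hochberg adjustment over 15052 genes (limma). The core held 27 genes, 0.179% of those tested. No gene was lower in every sort by the same test (0%), in which 164 genes were higher and 4 lower at an unadjusted p under 0.05; no other tool was run for this comparison. The rank and the test use the same differences, so rank values of called genes are a description. In all, 1395 genes had a positive rank value and 181 a rank value of at least 1, while the median of all ranked genes was -1.17. The library values of all 27 core genes did not overlap, each papilla library being above all 18 others, which held for 419 genes in all (2.78%). The 27 were picked from these same values, so this separation is a description and no added support. Leaving a whole population out of the test keeps every core gene by construction, since fewer differences have to pass. Without G-DP the core had 47 genes and kept all 27, and 7 genes were lower; without ZZ-DP replicate 2 it had 22, of which 21 were among the 27. Single libraries moved the count further: it was 3 without DF replicate 1, 4 without DP replicate 2, and 16 and 17 without G-DP replicates 1 and 2. The least stable members were Col23a1, called in 2 of the 28 fits that leave out 1 library, Zic4, called in 8, and Grb14, called in 10; each other member was called in at least 19.

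**Figure D2:**
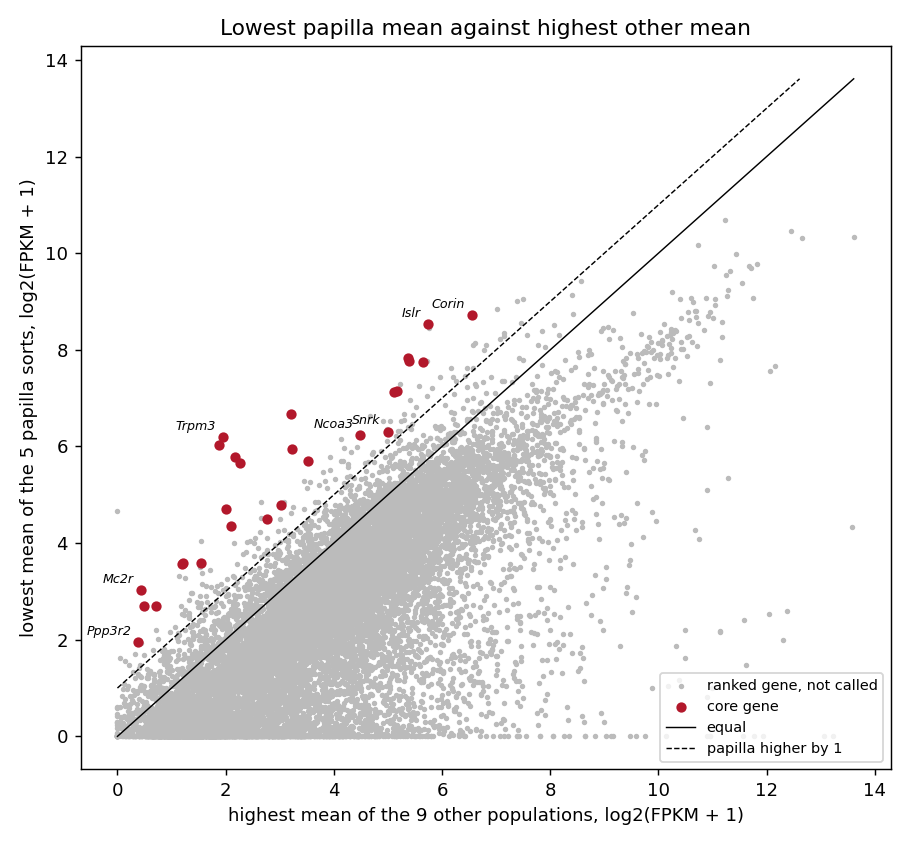
Lowest mean of the 5 papilla sorts (y axis) against the highest mean of the 9 other populations (x axis), both as log2(FPKM + 1), for the 14944 ranked genes. The 27 core genes (red) lie above the dashed line, where the papilla is higher by 1, with rank values between 1.30 and 4.24.

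Several core genes encode secreted or surface-bound signalling and matrix proteins. Rspo4, an R-spondin, had a lowest, median and highest level of 30.2, 253 and 702 FPKM in the 10 papilla libraries, against 1.62 and 6.77 FPKM in DF and a median of 0 over the 18 other libraries. Its rank value was 3.60 ± 0.66 (SE, adjusted p = 0.019). Both DP libraries, at 30.2 and 94.8 FPKM, were below the other 8 papilla libraries. Rspo2, a second R-spondin, had 47.0, 83.1 and 124 FPKM, against at most 16.0 FPKM elsewhere (rank value 2.17). Fgf10, a growth factor that acts on epithelium, had 50.6, 103 and 173 FPKM, against 3.75 and 17.5 FPKM in DF (rank value 2.73). The groups were separate in each case, and G-DP had the lowest sort mean for Rspo2 and Fgf10.

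Islr, a secreted protein with leucine-rich repeats, was among the highest, at 315, 437 and 902 FPKM in the papilla libraries, against 35.98 and 76.1 FPKM in DF. Scube1, a secreted and cell-surface protein with EGF and CUB domains, had 176, 373 and 718 FPKM, against 41.2 and 39.8 FPKM in DF. Crispld1, a cysteine-rich secretory protein, was low at 9.67 to 20.6 FPKM, against at most 1.92 FPKM in any other library. Spock3, a secreted proteoglycan, had 3.39 to 13.7 FPKM and was at or under 0.577 FPKM elsewhere. Hhip, which binds hedgehog ligands at the cell surface and is itself a target of the pathway, had 209, 246 and 357 FPKM, against 26.4 and 62.6 FPKM in DF. Its level was among the most even of the core, with a range of 0.49 on the log2(FPKM + 1) scale over the 5 sort means.

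The largest rank values in the core belonged to Trpm3 and Snap91. Trpm3, a calcium-permeable channel (gene at chr19:22137797-22995410, GRCm38.p6), had a lowest, median and highest level of 63.9, 95.0 and 158 FPKM in the papilla libraries. The 18 other libraries had 0, 0.198 and 6.45 FPKM, the highest being DF replicate 2 and the other DF library 1.01 FPKM. Its rank value of 4.24 ± 0.50 (SE, adjusted p = 0.000227) was the largest of the core. Snap91, a clathrin assembly protein of synapses, had 62.9 to 131 FPKM, against 1.04 and 5.65 FPKM in DF (rank value 4.15, adjusted p = 3.38e-05). Dcc, the netrin receptor, had 46.1 to 101 FPKM, against 2.03 and 6.57 FPKM in DF (rank value 3.39, adjusted p = 0.000102). Dcc was the only member of the core called under every alternative tried, and Trpm3 and Snap91 were called with every single library left out.

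Further receptors, channels and adhesion proteins belonged to the core. Mc5r and Mc2r, receptors for melanocortin peptides, had 67.9 to 274 FPKM and 5.38 to 12.6 FPKM in the papilla libraries, against at most 18.03 and 0.827 FPKM elsewhere. The pair lies 64452 bases apart on chromosome 18. Shisa9, an auxiliary protein of AMPA glutamate receptors, had 24.2 to 53.6 FPKM, against at most 5.16 FPKM. Grin3a, an NMDA receptor subunit, had 7.75 to 25.8 FPKM, and Kcnq3, a potassium channel, 7.89 to 18.6 FPKM, against at most 1.94 and 2.45 FPKM elsewhere. Cntn1, a contactin of axons, had 17.9 to 52.1 FPKM, and its nearest population was Mc, at up to 5.91 FPKM. Gldn (gliomedin), which organises nodes of peripheral axons, had 158, 386 and 544 FPKM, against 36.2 and 66.3 FPKM in DF. Col23a1, a transmembrane collagen, had 109 to 204 FPKM, against 31.9 and 37.8 FPKM in DF, and stood at the edge of the test (adjusted p = 0.048).

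Corin, a membrane serine protease whose loss in mice changes the agouti-controlled coat colour, had 372.5, 484 and 758 FPKM in the papilla libraries. In DF it had 83.9 and 104 FPKM, and its median over the 18 other libraries was 0.289 FPKM. The rank value was 2.16 ± 0.32 (SE, adjusted p = 0.00215). Every papilla library was above both DF libraries, and DF was well above the other populations.

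**Figure D3:**
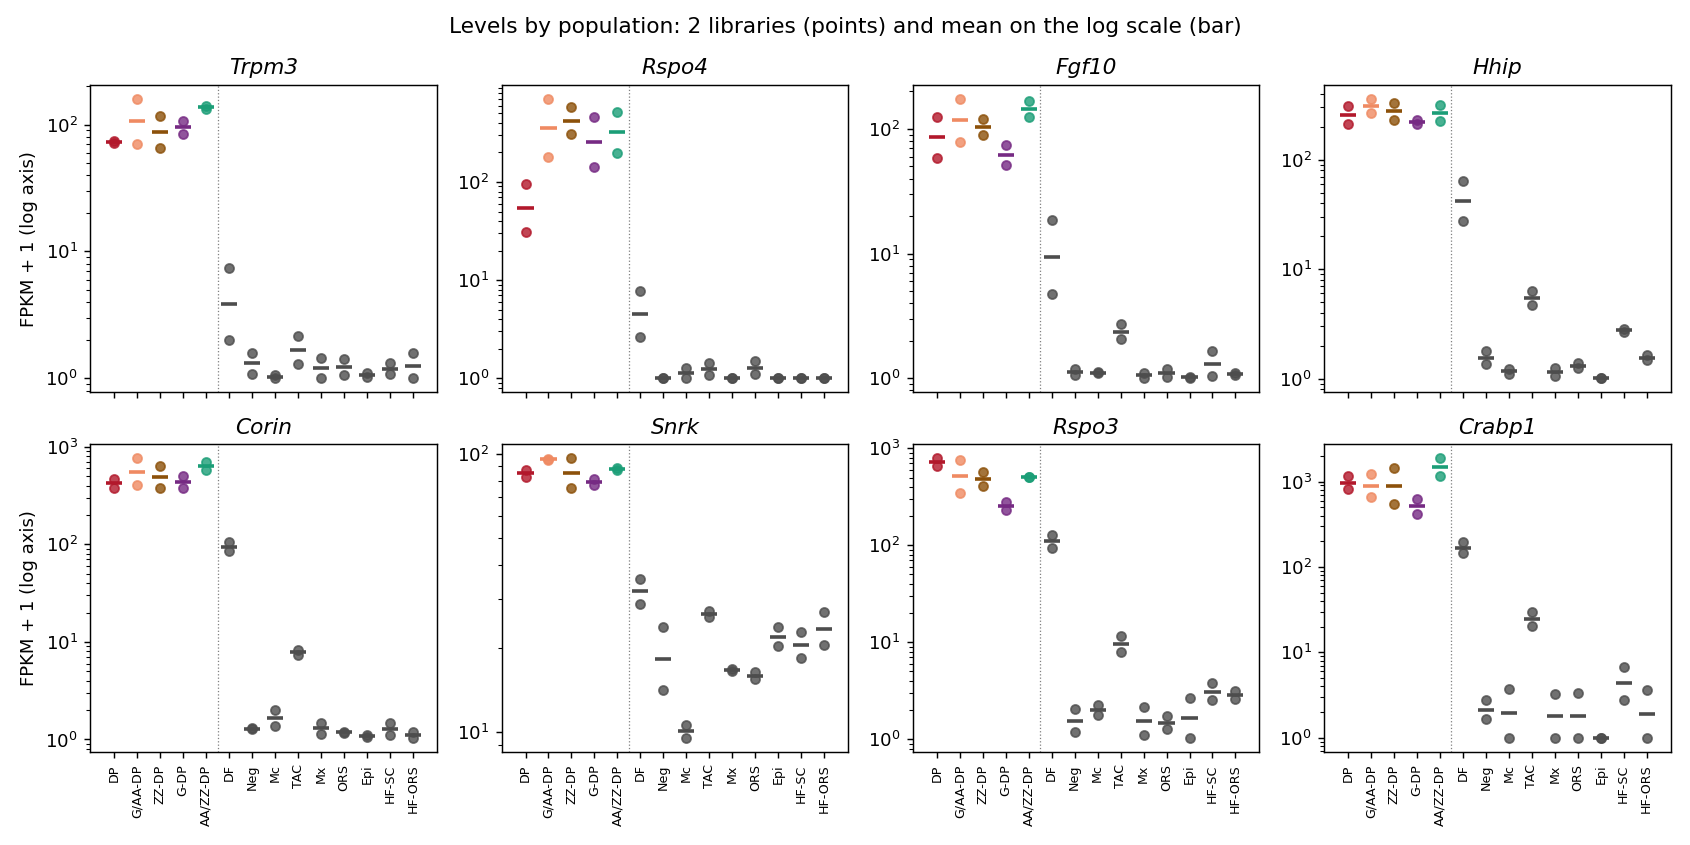
FPKM + 1 (log axis) of 8 genes in the 14 populations, papilla sorts left of the dotted line, with 2 libraries per population as points and their mean on the log scale as a bar. Trpm3, Rspo4, Fgf10, Hhip, Corin and Snrk belong to the core; Rspo3 and Crabp1 do not pass its test, and DF is the nearest population in all 8.

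Core genes acting inside the cell included transcription factors and a coactivator. Alx4, a homeodomain transcription factor of mesenchyme, had 107, 164 and 219 FPKM in the papilla libraries, against 35.8 and 31.5 FPKM in DF and a median of 0.0895 FPKM over the other 18. Zic4, a zinc finger factor, had 20.3 to 39.6 FPKM, against 7.57 and 4.36 FPKM in DF. Ncoa3, a coactivator of nuclear receptors, and Snrk, a kinase related to AMPK, were expressed in every population. Ncoa3 had 67.0 to 119.5 FPKM, against a median of 12.8 and a highest level of 25.98 FPKM in the other libraries, with TAC nearest. Snrk had 74.4 to 95.2 FPKM, against a median of 19.5 and a highest level of 34.6 FPKM. Its rank value of 1.30 was the smallest of the core.

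Grb14, an adaptor that binds the insulin receptor, had 22.8 to 50.8 FPKM in the papilla libraries, against at most 8.35 FPKM elsewhere. Psd2, an exchange factor for Arf GTPases, had 4.84 to 8.16 FPKM and the smallest range over the 5 sort means, 0.27 on the log2(FPKM + 1) scale. Ppp3r2, a calcineurin subunit, was the lowest member, at 2.05 to 5.00 FPKM, against at most 0.442 FPKM. Its gene lies inside that of Grin3a on chromosome 4, and since no strand is stated for the counting, reads of the pair cannot be separated. The same limit holds for Zic4 with Zic1 and for Psd2 with Nrg2, whose genes overlap.

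**Figure D4:**
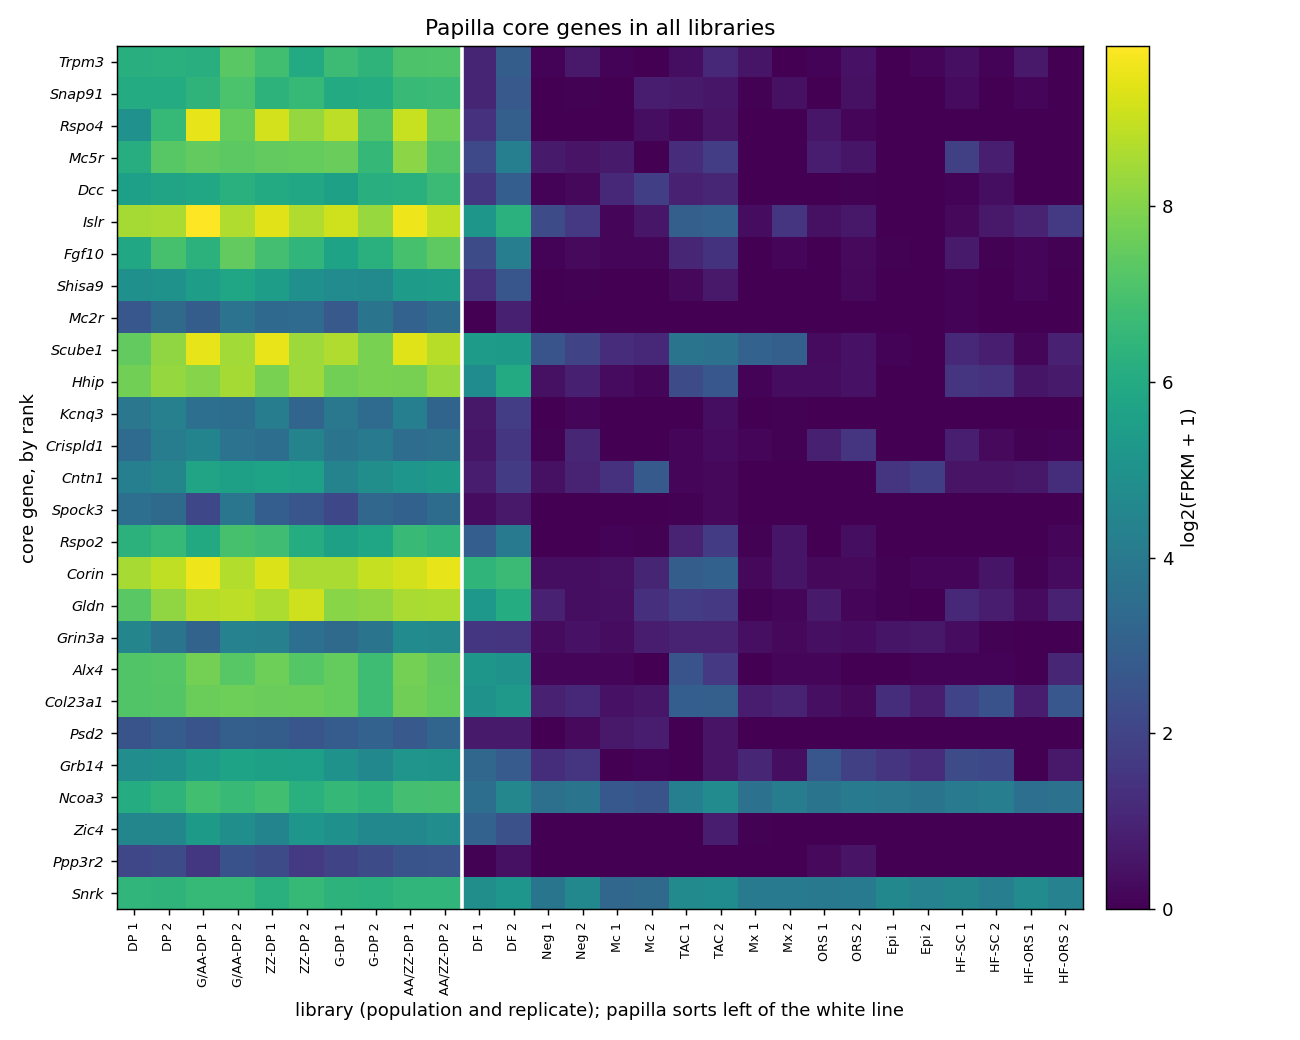
log2(FPKM + 1) of the 27 core genes (by rank, down the page) in all 28 libraries, with the 10 papilla libraries left of the white line and the 18 others right of it. DF is the nearest other population for 22 of the 27, and Ncoa3 and Snrk have at least 4.90 FPKM in all 28 libraries.

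Promoters of core genes, which share a high level in all papilla sorts, were searched for motifs, with windows around annotated starts from the RefSeq promoter table of GRCm38.p6 (mm10), which matched 16 of the 27 by symbol. Shown are the 3 genes of highest rank, the marker Corin, and Cntn1, which was picked after its motif was seen. They are printed 5′ to 3′ on the gene's strand, with CTTTGA (bound by LEF/TCF factors) or GGGCGG (the GC box) in capitals, in either orientation. The windows are chr19:22138796-22139095 (plus strand, the first of 2 listed starts) for Trpm3, chr9:86880659-86880958 (minus) for Snap91, chr2:151842677-151842976 (plus) for Rspo4, chr5:72504491-72504790 (minus) for Corin and chr15:92050915-92051214 (plus, 1 of 3 listed starts) for Cntn1.
Trpm3: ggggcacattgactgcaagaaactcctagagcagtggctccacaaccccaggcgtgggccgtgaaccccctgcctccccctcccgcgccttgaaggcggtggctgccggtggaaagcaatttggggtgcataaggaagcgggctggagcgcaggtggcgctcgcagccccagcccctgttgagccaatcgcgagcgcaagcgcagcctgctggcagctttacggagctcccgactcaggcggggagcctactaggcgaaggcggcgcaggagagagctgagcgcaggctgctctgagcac
Snap91: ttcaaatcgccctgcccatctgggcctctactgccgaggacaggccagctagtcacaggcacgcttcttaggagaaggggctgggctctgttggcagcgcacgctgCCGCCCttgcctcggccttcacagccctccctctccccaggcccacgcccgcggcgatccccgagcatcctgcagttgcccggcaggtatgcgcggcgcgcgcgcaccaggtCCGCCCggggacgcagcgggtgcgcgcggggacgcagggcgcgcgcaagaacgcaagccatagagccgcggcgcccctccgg
Rspo4: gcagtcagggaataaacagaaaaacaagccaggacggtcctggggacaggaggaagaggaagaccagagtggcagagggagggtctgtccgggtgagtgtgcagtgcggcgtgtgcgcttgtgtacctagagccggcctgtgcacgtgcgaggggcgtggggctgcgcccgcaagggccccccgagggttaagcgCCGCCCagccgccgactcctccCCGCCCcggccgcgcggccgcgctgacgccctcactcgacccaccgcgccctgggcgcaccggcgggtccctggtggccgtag
Corin: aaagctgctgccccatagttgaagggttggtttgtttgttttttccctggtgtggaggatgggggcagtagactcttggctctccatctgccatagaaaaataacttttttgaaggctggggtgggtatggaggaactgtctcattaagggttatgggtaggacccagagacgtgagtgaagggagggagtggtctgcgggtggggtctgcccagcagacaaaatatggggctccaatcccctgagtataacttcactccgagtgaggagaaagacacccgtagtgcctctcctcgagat
Cntn1: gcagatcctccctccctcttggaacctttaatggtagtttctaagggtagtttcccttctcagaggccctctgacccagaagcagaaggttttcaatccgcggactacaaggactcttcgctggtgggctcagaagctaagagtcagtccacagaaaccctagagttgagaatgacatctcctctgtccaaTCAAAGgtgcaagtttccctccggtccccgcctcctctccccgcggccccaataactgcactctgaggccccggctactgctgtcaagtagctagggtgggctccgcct
The LEF/TCF motif stood in the windows of Cntn1 and Zic4, 12.5% of the 16 core genes, against 14.3% of 10912 tested genes with a window and 16.0% of all windows of the table. The GC box stood in 9 of the 16 (56.2%), against 66.2% and 35.7%. AACAAT (Sox factors) and TATAAA (the TATA box) were each found for Cntn1 alone, in a window of another of its starts and not in the one printed, 6.25% of the core, against 7.40% and 9.71% of tested genes and 10.7% and 13.6% of all windows. TAATTA (homeodomain factors) was in none, against 3.53% and 5.29%. These letters may overlap, both strands were read, and a match is no evidence of binding.

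DF set the limit of the core. It was the nearest other population for 22 of the 27 core genes and for 143 of the 181 genes with a rank value of at least 1. The 5 exceptions in the core were Crispld1 and Ppp3r2 (ORS), Cntn1 and Psd2 (Mc) and Ncoa3 (TAC). As a share of each gene's papilla median, the core stood at 0 to 32.2% in DF replicate 1 (median 8.09%) and at 2.68 to 40% in DF replicate 2 (median 15.3%). DF replicate 2 was the higher of the pair for 22 genes. The medians were 0.811% and 1.67% in TAC, and 0.0707% and 0.111% in Mc. In the 10 epithelial libraries of Mx, ORS, Epi, HF-SC and HF-ORS, 15 of the 27 core genes stayed under 1 FPKM throughout. The core was picked to be lower in each of these populations, so low levels there are in part built in. The nearest population, the order of the DF pair and the epithelial level were not counted over all genes tested, so these counts are a description. Without DF, 290 genes passed the same test, all 27 included by construction.

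In the K14-H2BGFP line, 151 genes were higher in DP than in each of the 7 others (1% of those tested). All 27 core genes were among them by construction, since the 45 differences of the core test contain these 7. Of the 25 named genes of highest rank, 24 were called in DP and 19 in the core. The 25 were picked by the smallest of the same 45 differences, so these counts are a description and no added support. The 6 that missed the core were Fgf7, Nrg2, Chst8, Sod3, Gpr165 and Scube3. Fgf7, a growth factor for keratinocytes, had 249, 451 and 871 FPKM in the papilla libraries, against 25.8 and 108 FPKM in DF; its rank value of 2.68 ± 0.58 (SE) gave an adjusted p of 0.0773 (limma), and it passed without G-DP, as did Chst8 (adjusted p = 0.0368) and Sod3 (adjusted p = 0.00337). Its gene overlaps Fam227b. Sod3, an extracellular superoxide dismutase, had 8.19 to 48.5 FPKM, against at most 1.35 FPKM, and Gpr165 1.34 to 27.1 FPKM, against at most 1.03 FPKM. Nrg2, a neuregulin, ranged from 10.5 to 61.3 FPKM. At the edge of the test stood Snrk, Ppp3r2 and Zic4 inside, with rank values of 1.30, 1.57 and 1.73, and Fgf7, Nrg2 and Chst8 outside, with 2.68, 2.50 and 2.19. The SE of the 3 inside was 0.24 to 0.35, and that of the 3 outside 0.49 to 0.70. The first rank went to the small RNA Mir669a-3, which was listed from 0 to 1638 FPKM in papilla libraries and was not called.

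Gene lists of pathways were then read across the core. Of 28 papilla genes from textbook knowledge, 6 were in the core (Trpm3, Rspo4, Fgf10, Hhip, Rspo2 and Corin), against 0.179% of all genes tested, and their median rank value was 1.15. Without G-DP, Alpl, Edn3, Fgf7 and Rspo3 of the list passed as well. The list names markers long used for the papilla, so its direction is no independent result. Of 15 secreted Wnt modulators 2 were called, both R-spondins, and Rspo3 passed without G-DP. Sfrp1, a Wnt antagonist, had 253 to 1347 FPKM in the papilla, against 27.3 and 50.4 FPKM in DF but up to 153 FPKM in ORS. Wif1, another antagonist, had 98.5 to 1009 FPKM, against at most 58.3 FPKM in TAC, and missed the test with a rank value of 1.69 ± 0.54 (SE). Of 36 genes of BMP and TGF-beta signalling none was called, though Ltbp1 passed without G-DP. Bmp6 had a rank value of 2.02, Nog 1.06 and Bmp4 0.78, with papilla levels of 54.6 to 197, 5.46 to 22.7 and 107 to 515 FPKM, against at most 18.1, 3.49 and 92.5 FPKM elsewhere.

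Of 11 genes of hedgehog reception Hhip alone was called. Ptch1, the hedgehog receptor and a target of the pathway, had 365 to 885 FPKM in papilla libraries, against up to 214 FPKM in ORS, and Gli1, another target, 36.8 to 70.9 FPKM, against up to 37.4 FPKM in ORS. Of 19 FGF genes Fgf10 was called, with Fgf7 added without G-DP, and of 33 axon guidance genes Dcc and Cntn1. Of 32 mesenchymal transcription factors Alx4 was called, and of 24 proteoglycan and basement membrane genes Spock3, with Lamc3 and Frem1 added without G-DP. Of 7 genes for signals to melanocytes Corin was called. Edn3 (endothelin 3) had 102 to 412 FPKM in the papilla, against 40.7 and 66.4 FPKM in DF, and passed the core test without G-DP. Kitl had 0.625 to 13.2 FPKM in the papilla, against up to 212 FPKM in TAC. No member was called among 10 IGF genes, 16 retinoid genes or 24 genes of fibrous matrix, though Igfbp4 and Igfbp5 had rank values of 1.52 and 1.13. The share called over all genes tested was 0.179%, so few or no calls in lists this short are no result about a pathway.

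Against DF alone, 62 genes were higher in all 5 papilla sorts (0.412% of those tested) and 121 lower (0.804%), with the same kind of test over 5 differences. The 62 included all 27 core genes by construction, since the 45 differences of the core test contain these 5. They held 35 more. Among these were Lamc3, a laminin chain, at 42.0 to 122 FPKM in the papilla, against 12.9 ± 1.19 FPKM in DF (SD, n = 2), and Frem1, a basement membrane protein, at 172 to 269 FPKM, against 73.3 ± 13.2 FPKM. Ltbp1, which binds latent TGF-beta, had 164 to 363 FPKM, against 62.7 ± 16.2 FPKM, and Sfrp1 was higher by at least 2.97 in every sort. The adjusted p was 0.0197 for Lamc3, 0.0267 for Frem1, 0.0394 for Ltbp1 and 0.00057 for Sfrp1 (limma). Without G-DP the counts were 111 higher and 224 lower, and without DF replicate 1 they were 18 and 84. Leaving out DP replicate 2 gave 33 higher genes, G-DP replicate 1 37, ZZ-DP replicate 1 39 higher and 79 lower.

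Genes lower in the papilla than in DF included markers of other mesenchymal and neural cells. The share called lower than in DF over all genes tested was 0.804%. Of 12 smooth muscle and pericyte markers 7 were lower. Rgs5, a pericyte gene, had 0.631 to 13.2 FPKM in papilla libraries, against 388 ± 3.09 FPKM in DF, and Acta2, smooth muscle actin, 1.74 to 19.6 FPKM, against 102 ± 4.55 FPKM (SD, n = 2). In the sort nearest to DF the difference was -4.99 for Rgs5 (adjusted p = 0.000178), and Acta2 had an adjusted p of 0.00748 (limma). Of 10 Schwann cell markers 4 were lower, while 1 went the other way, with a rank value of at least 1, and was not called. Of 11 fibroblast markers only Pi16 was called lower, while 1 was higher in all 10 papilla libraries than in all 18 others without being called. The summed level of the 11 was 726 to 3452 FPKM in papilla libraries, against 2514 and 5931 FPKM in DF. Postn, a matrix protein, had 20.6 to 74.2 FPKM, against 191 and 525 FPKM in DF. The part of other cells of the DF gate in these differences was not tested.

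Genes with a low level in all papilla sorts were few, and those named here were chosen after their values were seen. All 5 sort means lay below those of all 9 other populations for 869 genes, but by at least 1 for only 8, and all 10 papilla libraries lay below all 18 others for 104 genes (0.691%). Lgals3 (galectin 3) stood furthest apart, at 0.143, 1.39 and 3.68 FPKM in the papilla, against a lowest level of 4.27 and a median of 21.97 FPKM elsewhere. Its difference nearest to 0, -1.70, gave an adjusted p of 1 (limma). Arap2, a GTPase activator, had 1.75 to 11.2 FPKM, against 16.0 to 62.1 FPKM. Llph, a nucleolar protein, had 14.5 to 27.1 FPKM, against 52.4 to 133 FPKM, and Dbi, which binds acyl-CoA, 82.7 to 187 FPKM, against 251 to 1109 FPKM. The groups did not overlap for Lgals3, Arap2, Llph and Dbi. They overlapped for the rest of the 8, which were Mt2, Ass1, Rfc4 and 4930455F23Rik. Papilla levels of these reached 202, 22.9, 5.58 and 2.61 FPKM, against lowest levels of 152, 11.2, 5.47 and 1.24 FPKM elsewhere. None of the 8 passed the adjusted test with all libraries. Arap2 was called lower without G-DP and Llph without DF, and Arap2 was also lower in DP than in the 7 other populations of its line (adjusted p = 0.00222, limma).

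Among the 5 papilla sorts, 237 genes varied by a moderated F-test with a range of means of at least 1 (1.57% of those tested). None of the 27 core genes was among them, and 5 of the 181 genes with a rank value of at least 1 were. Since the rank takes the lowest sort mean, a gene low in 1 sort is less likely to be ranked high, so the absence of called core genes is in part built in. The range over the sort means of core genes was 0.27 to 2.95, with a median of 0.702, beside 0.684 over all genes. DP had the lowest sort mean for 13 core genes and G-DP for 11. AA/ZZ-DP had the highest for 12, G/AA-DP for 9, ZZ-DP for 4, DP for 2 and G-DP for 0. The order of the sorts was not counted over all genes tested, so these counts are not shown to be particular to the core. Both DP libraries were among the 3 papilla libraries with the highest fibroblast marker sums, and both G-DP libraries among the 3 with the highest melanocyte marker sums; their part in these orders was not tested. Rspo4 had the largest range, 2.95 (F-test adjusted p = 0.0765), followed by Cntn1, Scube1, Fgf10, Gldn and Grin3a at 1.09 to 1.30. The most even were Psd2, Snrk, Mc2r, Alx4, Col23a1 and Hhip, at 0.27 to 0.49.

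**Figure D5:**
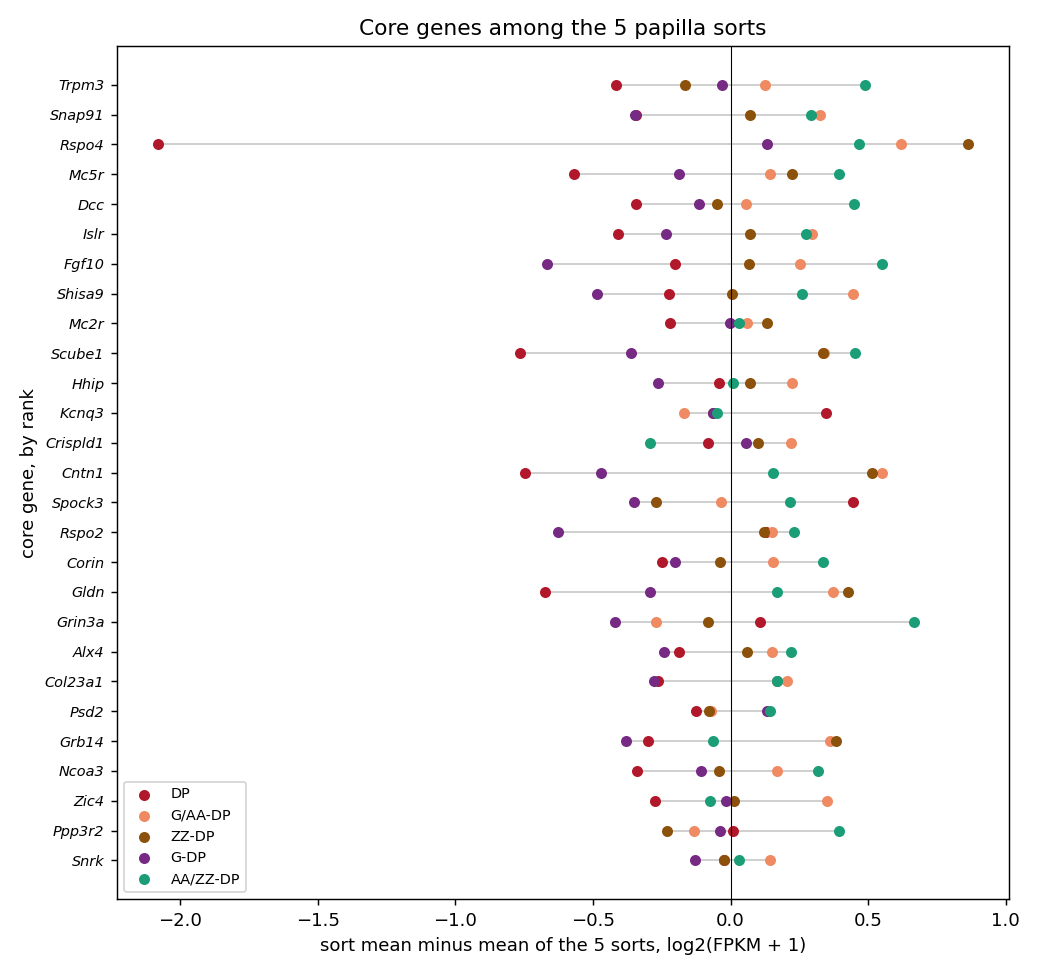
Mean of each papilla sort minus the mean of the 5 sorts, on the log2(FPKM + 1) scale, for the 27 core genes in order of rank. Rspo4 has the widest spread, 2.95, set by DP, and no core gene varied past the threshold of the F-test.

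The 5 high-ranked genes that varied were Lepr, Ndnf, Spon1, BC051142 and 1700047M11Rik, named after their values were seen. Lepr, the leptin receptor, averaged 67.0 ± 37.1 FPKM in DP, 343 ± 92.5 in G/AA-DP, 383 ± 159 in ZZ-DP, 181 ± 27.9 in G-DP and 220 ± 13.1 in AA/ZZ-DP (SD, n = 2 each; range 2.55, limma F-test adjusted p = 0.0183). Ndnf, a secreted neurotrophic factor, and Spon1 (spondin 1) also had their lowest mean in DP, at 85.2 ± 87.1 and 73.4 ± 7.31 FPKM, against 368 to 497 and 173 to 261 FPKM as means of the other 4 sorts. DP was thus the low sort in all 3, and it is also the only papilla sort of its line, so line and sort cannot be told apart. The fibroblast marker sums of both DP libraries, given above, were also high. Of the 10 melanocyte markers 9 were among the 237, which were 1.57% of all genes tested. Of the 237 genes, 69 (29.1%) had their highest mean of all 14 populations in Mc, beside 14.6% of all genes tested. Without G-DP the count was 76, without DP replicate 1 it was 71, and without G/AA-DP replicate 2 it was 440.

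Sorts were also compared within a line; the choice of core genes by their lowest papilla mean makes calls among them less likely here too. Between G/AA-DP and ZZ-DP 1 gene of 15052 was called (0.00664%), the small nucleolar RNA Snora44, which was listed at 0 in both G/AA-DP libraries. At an unadjusted p under 0.05 (limma) and an absolute log2 difference of at least 1 there were 124. Between G-DP and AA/ZZ-DP 76 genes were called (0.505%), 62 higher and 14 lower in G-DP, none of them in the core or among the 181. Of the core genes, Fgf10 differed by -1.21 ± 0.50 (SE, adjusted p = 0.502), Grin3a by -1.09 ± 0.38 (adjusted p = 0.376) and Rspo2 by -0.86 ± 0.40 (adjusted p = 0.583) between G-DP and AA/ZZ-DP, none past the threshold (limma). Of the 62 higher genes 51 (82.3%) had their highest mean in Mc, among them Kit at 133 ± 52.7 FPKM in G-DP and 4.98 ± 0.68 FPKM in AA/ZZ-DP and Tyr at 144 ± 49.8 and 7.13 ± 1.54 FPKM (SD, n = 2 each). None of the 14 lower genes did. Tbx5, a transcription factor of limb and heart, was among them, at 0.435 ± 0.616 FPKM in G-DP and 5.51 ± 4.27 FPKM in AA/ZZ-DP. Without AA/ZZ-DP replicate 2 the count was 13, and without G-DP replicate 1 it was 282. The part of melanocyte RNA in these calls was not tested.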

How the data were processed

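RNA of FACS-sorted back skin cells was amplified and sequenced, per the labels' protocols. The authors deposited FPKM values for all 28 libraries in 1 table. Cufflinks 2.1.1, TopHat2 2.0.3, Bowtie2 and the build mm10 were used, per the submitters' processing notes; no source read here states the annotation, the strand or a scaling between libraries. FPKM totals ran from 285980.6 to 515224 and upper quartiles from 10.3 to 11.1, depth is unknown, and an exact 0 can be a failed estimate, so no counting interval is given.

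The table had 23235 entries, and 23015 were left once 220 identical repeats were removed; a symbol occurred more than once in 64 of them, and 170 listed several names. Genes reaching 1 FPKM in 2 or more libraries entered the tests as log2(FPKM + 1), a pseudocount of 1, which understates changes of low genes. The fit was made with limma 3.58.1 (R 4.3.3, trend) with 1 mean per population over all 28 libraries (14 residual and 5.72 prior degrees of freedom), without a replicate term. Each comparison was adjusted by the Benjamini-Hochberg method over 15052 genes; calls needed an adjusted p under 0.05 and a log2 difference of at least 1. The fitting code was tested on simulated data. Positions and promoter windows come from RefSeq (GRCm38.p6).

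The sorts, gene lists and tests were chosen with earlier results of these data known. Named genes were the gate genes, 4 papilla markers, the 25 highest and 5 lowest by rank value with at least 5 FPKM (without predicted names, small RNAs and joined rows), the core genes, up to 6 high and 3 low members per list, the core genes of largest and smallest range among sorts, and 3 genes on each side of the test; others are said to be, or are (Acta2, Rgs5, Pi16, Kit, Tyr, Mlana, Tbx5, Snora44), chosen after their values were seen. Every column of values was matched to a sample. Alternatives were another pseudocount, filter or scaling, a replicate block, leaving out each library, Neg, DF or G-DP, and the DP line alone.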

Additional observations from a re-analysis of the deposited data

How the results depend on the processing

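The core of 27 genes had 2 genes with a pseudocount of 0.1 (Dcc and Ncoa3), 48 with a pseudocount of 5, 48 with a replicate block, 290 without DF, 47 without G-DP and 151 for DP in its own line alone. It had 28 with no filter, 29 with a filter at 5 FPKM, 35 after quantile normalization, 27 without Neg and 27 with no minimum difference. Leaving out 1 library gave 3 to 30 genes. It gave 3 without DF replicate 1, 4 without DP replicate 2, 16 without G-DP replicate 1 and 17 without G-DP replicate 2. Dcc, Snap91 and Trpm3 remained in all 28 of these fits. The count of genes lower in all sorts, 0, was 1 with the block (Arap2), 11 without DF and 7 without G-DP. With the block the core kept 26 of its 27 genes and lost Zic4. Deviations of same-numbered libraries within a line correlated at 0.057 to 0.285, over 0.1 in 29 of 31 pairs, and the labels do not say what a number marks, so the numbers were not read as pairing the libraries; 9 of the 10 papilla libraries correlated best with the same-numbered library of another papilla sort.

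The DP line count of 151 was 48 with a pseudocount of 0.1, 243 with the replicate block and 50 to 177 with 1 library left out. Against DF, 183 genes in all were called, 62 higher and 121 lower. A pseudocount of 0.1 gave 38 (14 and 24), the block 276 with 110 higher, a filter at 5 FPKM 76 lower and leaving out G-DP, an alternative chosen after seeing the data, 335 (111 and 224). Leaving out 1 library gave 102 to 214 in all, 18 to 72 higher and 79 to 142 lower. The F-test count of 237 was 137 with a pseudocount of 0.1, 593 with the block, 76 without G-DP (chosen after seeing the data) and 71 to 440 with 1 library left out. Between G/AA-DP and ZZ-DP the 1 call was 4 with no filter and 1 to 15 with 1 library left out. Between G-DP and AA/ZZ-DP the 76 were 28 with a pseudocount of 0.1 and 13 to 282 with 1 library left out. Of 1443 alternative values of single genes, 1233 kept their side of the test and their direction, 190 missed it and 19 passed it anew. The rank value of Sox2 alone changed direction, to 0.77 without DF. The cause of these changes was not tested. Where libraries or populations were left out, the comparison also held fewer of them.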
